A study of Mus musculus with 6 samples.

Results

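The complement components and receptors described here are 9 of the 24062 genes listed with a count in these libraries, chosen by symbol: *C1qa*, *C1qb*, *C1qc*, *C4b*, *C3*, *Cfb*, *C3ar1*, *C5ar1* and *Serping1*. All 9 were found, and all 9 passed the filter on low counts. They were measured by bulk RNA-seq in 3 libraries from *Nf1fl/fl;DhhCre* mice and 3 libraries from mice floxed in addition for *Runx1* and *Runx3*, called double knockout here by their label. All are on a C57BL/6-I129 background, and their age is not given in the sources used here. The genotype field of the double-knockout samples reads Rx1flfl;Rx3fl/fl;DhhCre, without *Nf1*. The *Nf1fl/fl* alleles of these mice are named in the extraction protocol and the methods of the study. The tissue field reads dorsal root ganglion (DRG) for one genotype and neurofibroma tumor for the other, while the protocol says DRG/tumors for both, so that a difference of tissue and one of genotype cannot be told apart. In both groups Cre under the *Dhh* promoter recombines floxed alleles in the Schwann cell (SC) lineage. Macrophages are not of that lineage. Each sample title carries a number of its own, but no label says what it numbers, and for 2 samples of each genotype the title and the deposited file carry each other's number. Separate animals are thus not stated, and the p-values measure the spread between these libraries.

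Complement is a cascade of plasma and tissue proteins that marks surfaces for clearance. C1q, built of A, B and C chains, binds immune complexes and damaged membranes and activates the proteases C1r and C1s, which cleave C4 and C2 to form a convertase for C3. Factor B takes part in the convertase of the alternative pathway, and C1 inhibitor, the product of *Serping1*, blocks C1r and C1s. The fragments C3a and C5a attract and activate myeloid cells through C3aR and C5aR1. In peripheral nerve, macrophages are known as a main source of C1q, and complement opsonises myelin debris after injury.

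The libraries held 12439296 to 16682194 counts. *Runx1* was at 131, 141 and 172 CPM (read counts scaled to library size) in *Nf1fl/fl;DhhCre*. It was at 84.0, 78.9 and 185 CPM in double-knockout replicates 1 to 3, so that it was not reduced in replicate 3. Whole tissue was sequenced while Cre acts in the SC lineage, so that this value cannot show whether the alleles were deleted there. *Runx3* was at 19.9, 15.1 and 29.9 CPM against 13.5, 10.3 and 12.1 CPM, and *Nf1* at 302 ± 30.8 CPM against 290.3 ± 44.5 CPM (SD, n = 3 each). The labels place 1 double-knockout library in another sequencing run and do not settle whether it is replicate 2 or 3. Replicate 2 also stood apart by a list of 8 skeletal muscle genes, among them *Myh4*, which summed to 13534 CPM there and to between 8.02 and 2519 CPM in the other 5 libraries. SC markers were present in every library. *Sox10*, a transcription factor of the SC lineage, was at 195 to 241 CPM in the *Nf1fl/fl;DhhCre* libraries and at 199.99 to 256 CPM in the others.

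Most of the 9 genes were lower in the double-knockout libraries, and none was called higher. By limma-voom, with p-values adjusted by the Benjamini-Hochberg method over all genes tested, 7 of the 9 passed both thresholds of the study (adjusted p below 0.05 and more than 2-fold) and all 7 were lower, where 5.36% of the 15652 genes tested were called lower and 13.4% were called in either direction. The 7 were *C3ar1*, the 3 C1q chains, *C4b*, *C5ar1* and *Serping1*, with values 2.27-fold to 6.32-fold lower. In each of the 7 the highest double-knockout library lay below the lowest *Nf1fl/fl;DhhCre* library, a pattern found in 20.5% of all genes tested (21.8% were separated upward and 42.3% either way). Called and more than 4-fold lower were 4 of the 9 (*C3ar1* and the C1q chains), against 1.99% of all genes tested. *C3* and *Cfb* overlapped between the genotypes. Without double-knockout replicate 2 (high muscle genes), and likewise without replicate 3 (*Runx1* not reduced), 6 of the 9 were called, *C1qa* being the one lost. Without *Nf1fl/fl;DhhCre* replicate 1 only 2 were called, *C4b* and *Serping1*, in a fit that called 2.26% of all genes. The median log2 fold change was -1.68 over the 9 genes and 0.02 over all genes tested. Because whole tissue was sequenced, fewer cells of a type and less RNA per cell cannot be told apart in any of these values.

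**Figure D1:**
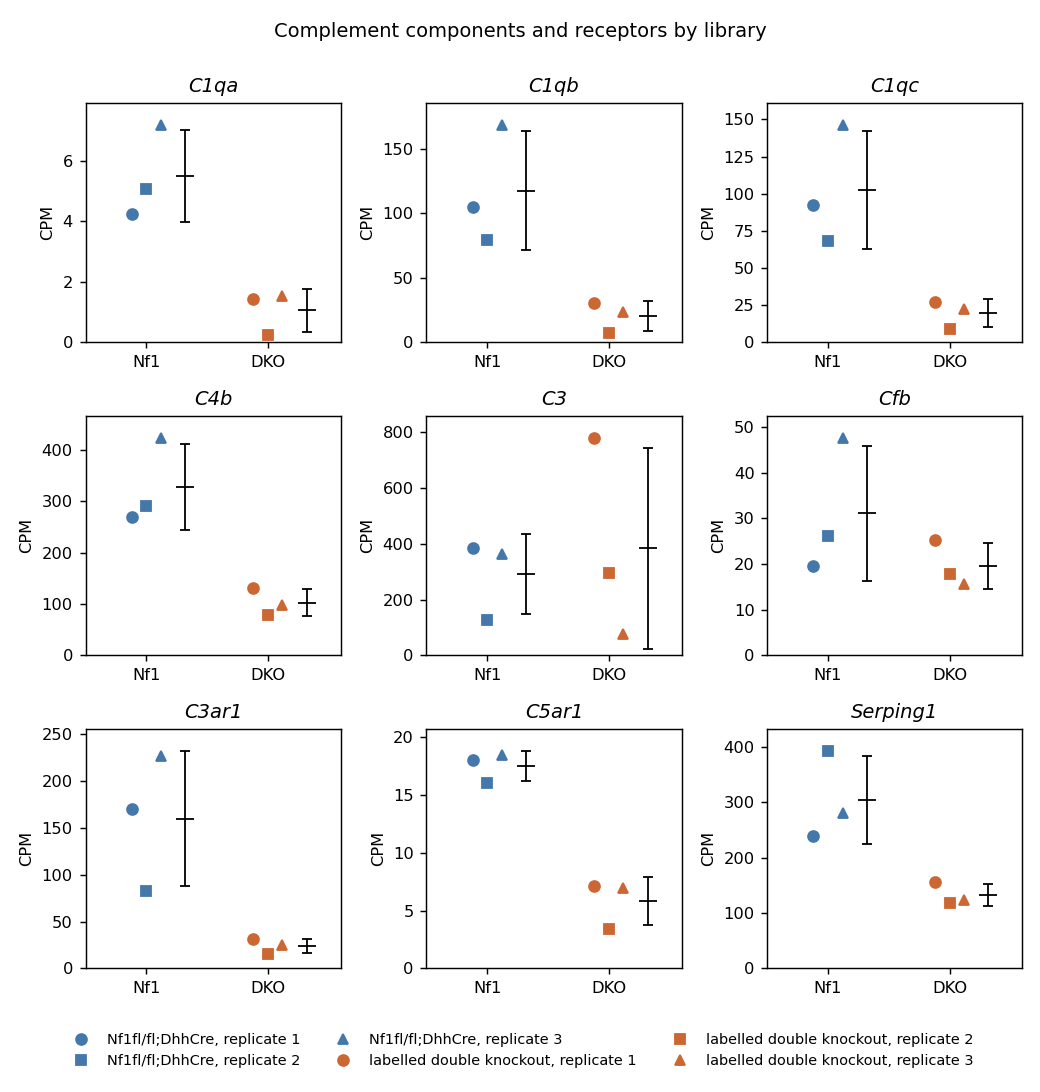
Each panel plots 1 gene on an axis of CPM that starts at 0. Points are single libraries, with a symbol for each replicate, and the bars beside them are the mean and SD (n = 3). In 7 panels all 3 double-knockout libraries (DKO) lie below all 3 *Nf1fl/fl;DhhCre* libraries (Nf1), whereas *C3* spans 75.7 to 781 CPM within the double-knockout group and *Cfb* overlaps.

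The initiating protein C1q was represented by its 3 chains, whose genes lie side by side on the minus strand of chromosome 4 of GRCm38. *C1qb* is at 136880129 to 136886187, *C1qc* at 136889804 to 136893065 and *C1qa* at 136895917 to 136898803, with gaps of 3616 and 2851 bases between them. The CPM of *C1qb* were 105, 79.0 and 169 in *Nf1fl/fl;DhhCre* replicates 1 to 3 and 30.8, 7.40 and 23.2 in double-knockout replicates 1 to 3 (all later values are in this order). Its lowest value was in double-knockout replicate 2, the library with the high muscle genes. This gave a log2 fold change of -2.65 (standard error 0.51, limma-voom adjusted p = 0.0170), or 6.29-fold lower. *C1qc* was at 92.7, 68.4 and 147 CPM against 27.5, 8.96 and 22.6 CPM, with the libraries in the same order as for *C1qb*. Its change was -2.43 (standard error 0.45, limma-voom adjusted p = 0.0154), or 5.40-fold lower. Both kept their call at -2.07 and -1.97 without double-knockout replicate 2, and at -2.87 and -2.62 without replicate 3. Without *Nf1fl/fl;DhhCre* replicate 1 the estimates were -2.66 and -2.43, but the adjusted p-values (limma-voom) were 0.0592 and 0.0574 and the calls were lost.

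*C1qa*, the gene of the A chain, had far fewer reads than its neighbours. Its counts were 61, 85 and 112 in the *Nf1fl/fl;DhhCre* libraries and 18, 3 and 23 in the double-knockout libraries, or 4.23, 5.06 and 7.18 CPM against 1.43, 0.247 and 1.52 CPM. The groups were separate again, with a log2 fold change of -2.58 (standard error 0.66, limma-voom adjusted p = 0.0352). The call was lost whichever of the 6 libraries was left out, with changes of -3.04 to -1.83 and adjusted p-values of 0.0517 to 0.0817.

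The make-up of the C1q counts was compared next, since it does not depend on how much C1q there was. *C1qb* took 51.9%, 51.8% and 52.3% of the counts on the 3 chains in the *Nf1fl/fl;DhhCre* libraries and 51.5%, 44.6% and 49.0% in the double-knockout libraries. *C1qc* took 44.9% to 46.0% in the former and 46.1%, 54.0% and 47.8% in the latter. Neither share overlapped between the genotypes, and each gave p = 0.1 in an exact two-sided permutation test, the smallest that 3 libraries against 3 allow. With the counts taken per kilobase of exon, p was 0.2 for *C1qb* and 0.1 for *C1qc* (exact permutation). The mean differences of -3.67 and 3.85 percentage points became -1.77 and 1.52 without double-knockout replicate 2. The shares stood farthest apart in that replicate, where 202 counts fell on the 3 chains and the 95% Wilson interval of the *C1qb* share ran from 37.9% to 51.4%. *C1qa* took 2.10% to 3.32% and 1.49% to 3.21%, with overlap. In every library *C1qb* had 15.3 to 30.0 counts for each count on *C1qa*, although the merged exons of *C1qa* measure 1040 bases and those of *C1qb* 1088. The A, B and C chains are known to be assembled in equal numbers. None of the stretches of 50 bases in the 3 transcripts was shared with another gene of the annotation, and the cause of the low *C1qa* counts was not tested.

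*C4b*, cleaved downstream of C1q, and *Serping1*, the inhibitor of that step, were lower by smaller factors. *C4b*, the gene of complement component C4 on chromosome 17 (minus strand, 34728380 to 34743882), had CPM of 270, 290 and 424 in *Nf1fl/fl;DhhCre*. Its double-knockout CPM of 131, 78.6 and 97.7 were each below all of the former. The log2 fold change was -1.68 (standard error 0.24, limma-voom adjusted p = 0.01004), or 3.21-fold lower. *C4b* had the smallest p-value of the 9 genes and alone among them kept its call whichever of the 6 libraries was left out (-1.83 to -1.44). Its transcript shares 35.2% of its 50-base stretches with the near copy *C4a*, which had 4 to 18 counts per library, so that the split of reads between the copies is uncertain.

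*Serping1*, on chromosome 2 (minus strand, 84765387 to 84775444), encodes the serine protease inhibitor of C1. It was at 239, 393 and 280 CPM against 156, 118 and 123.4 CPM, with a narrower range among the double-knockout libraries (1.32-fold) than among the *Nf1fl/fl;DhhCre* libraries (1.64-fold). The change was -1.18 (standard error 0.21, limma-voom adjusted p = 0.0145), or 2.27-fold lower. Its highest value was in *Nf1fl/fl;DhhCre* replicate 2, and without that library it was at -0.93, less than 2-fold, with an adjusted p of 0.0156.

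*C3* and *Cfb*, of the central and alternative steps, showed no call in any setting tried. *C3*, on chromosome 17 (minus strand, 57203970 to 57228136), encodes the protein on which the pathways converge. Its CPM were 386, 127 and 364 in *Nf1fl/fl;DhhCre* and 781, 297 and 75.7 in the double knockout, so that the latter held both the highest and the lowest of the 6 values. Its log2 fold change was -0.02 (standard error 0.82, limma-voom adjusted p = 0.991), with a 95% interval from -1.95 to 1.91 that leaves room for changes of more than 2-fold either way. The sign depended on the setting, at 0.39 with edgeR and 0.89 without double-knockout replicate 3.

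Adipocyte markers varied between the libraries in a partly similar order. A list of 5 adipocyte genes, among them *Cidec*, a lipid droplet protein, summed to 112, 13.5 and 99.6 CPM in the *Nf1fl/fl;DhhCre* libraries and to 478, 416 and 57.6 CPM in the double-knockout libraries, and 0 of the 5 were called. *Adipoq*, the adipocyte hormone adiponectin, was detected in every library. *Cfd*, the protease factor D that fat is known to secrete and that cleaves factor B, was at 36.8, 6.67 and 50.4 CPM against 232, 65.95 and 24.0 CPM (1.62 on the log2 scale, standard error 1.003, limma-voom adjusted p = 0.292). *Nf1fl/fl;DhhCre* replicate 2 was the lowest of its group in *C3*, in *Cfd* and in the adipocyte sum, and replicate 1 the highest double-knockout library in all of these. The part of adipose tissue in the *C3* values was not tested.

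*Cfb*, on chromosome 17 (minus strand, 34856374 to 34862518), encodes factor B. Its CPM were 19.6, 26.1 and 47.7 in *Nf1fl/fl;DhhCre* and 25.3, 17.8 and 15.6 in the double knockout. Double-knockout replicate 1 lay above *Nf1fl/fl;DhhCre* replicate 1, and the change was -0.61 (standard error 0.36, 95% interval -1.46 to 0.24, limma-voom adjusted p = 0.273). Of its 50-base stretches, 81.4% also lie in *Gm20547*, a gene model that overlaps it on the same strand, and how the counting treated such reads is not known.

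**Figure D2:**
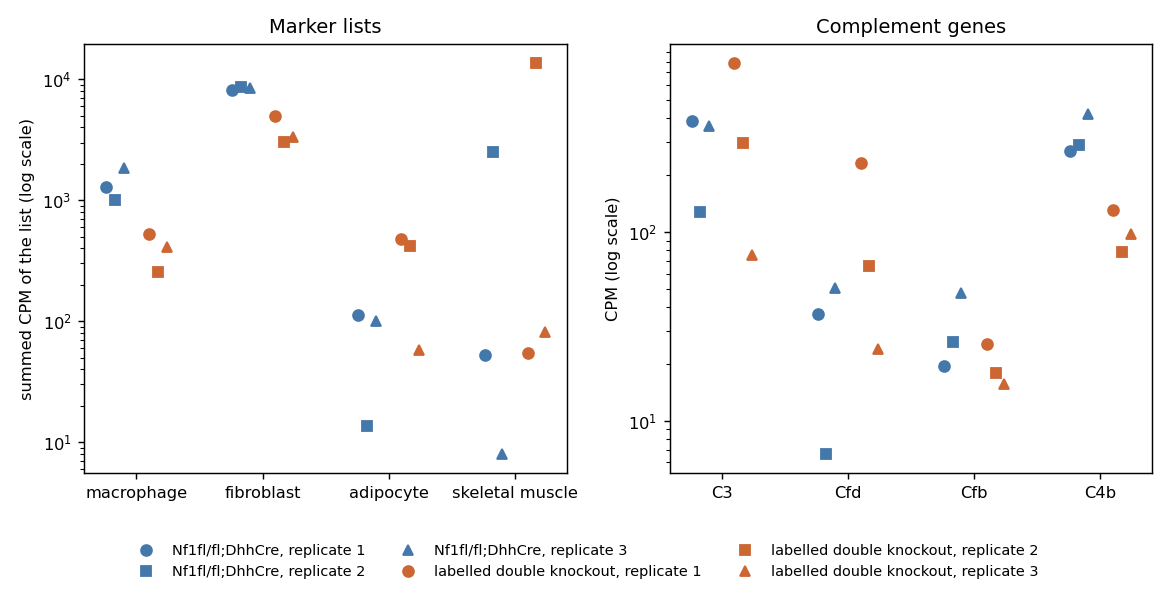
The left panel plots the summed CPM of 4 marker lists and the right panel the CPM of *C3*, *Cfd*, *Cfb* and *C4b*, both on a log axis, with a point for each library (*Nf1fl/fl;DhhCre* left and double knockout right in each pair). *C3*, *Cfd* and the adipocyte list are all highest in double-knockout replicate 1, and *C4b* is separated by genotype as the macrophage and fibroblast lists are.

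The anaphylatoxin receptors, which myeloid cells carry, were both lower. *C3ar1*, the receptor of C3a, on chromosome 6 (minus strand, 122847138 to 122856161), had CPM of 170, 83.1 and 227 in *Nf1fl/fl;DhhCre*. Its double-knockout CPM were 30.9, 15.9 and 25.2, each below all of the former. Its log2 fold change was -2.66 (standard error 0.45, limma-voom adjusted p = 0.0128), or 6.32-fold lower. *C5ar1*, the receptor of C5a, on chromosome 7 (minus strand, 16246743 to 16259540), had CPM of 18.0, 16.0 and 18.5 against 7.09, 3.45 and 6.93. The *Nf1fl/fl;DhhCre* libraries lay within 1.15-fold of each other, the narrowest range of the 9 genes in that group. The change was -1.63 (standard error 0.29, limma-voom adjusted p = 0.0144), or 3.09-fold lower. Both receptors lost their call only without *Nf1fl/fl;DhhCre* replicate 1, among the 6 fits that left out 1 library, with adjusted p-values of 0.0550 and 0.0564 and changes of -2.53 and -1.57.

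Promoter windows of 300 bases, from 250 before to 50 after the start of the gene in RefSeq, were given by RefSeq (GRCm38.p6) for 5 of the 9 genes (*C1qb*, *C1qc*, *C3*, *C3ar1* and *C5ar1*). They were searched on both strands for TGTGGT, the core letters bound by RUNX proteins, because RUNX genes are what the design deletes. The letters were found once each in *C1qc* and *C5ar1*, and 16.8% of all 32851 windows of this length hold them. RefSeq and GENCODE M21, from which the gene coordinates above are taken, place the starts of these genes differently. The first capital of *C1qc* is 132 bases before the RefSeq start (136892914) but 19 bases after the GENCODE start, within an exon. That of *C5ar1* is 234 bases before the RefSeq start (16259338) and 32 bases before the GENCODE start. The letters are shown in capitals, 5′ to 3′ on the strand of the gene, within 10 bases of sequence on either side.
*C1qc*, chr4:136893031-136893056, minus strand: gagatatcacTGTGGTcagcctggat
*C5ar1*, chr7:16259557-16259582, minus strand: gctggggagcTGTGGTcattatttct
Both genes were among the 7 called lower, as were *C1qb* and *C3ar1*, whose windows do not hold these letters. The letters of the interferon-stimulated response element (GAAA, any 2 bases, GAAA) were found in 0 of the 5 windows and are held by 3.44% of all, and those of the gamma-activated site (TTC, any 3 bases, GAA) in 0 of the 5 and by 8.3% of all. A match is a description of sequence and not a binding site.

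The rest of the pathway was followed in a list of 49 other complement genes. Of these, 34 passed the filter on low counts, 7 were called lower and 4 higher (5.36% and 8.03% of all genes tested), and the median log2 fold change was -0.17. In all, 11 were called, against 1 without *Nf1fl/fl;DhhCre* replicate 1, 6 without replicate 3 of that group, and 5 and 7 without double-knockout replicates 2 and 3. The proteases of C1 and the convertase component C2 were among those called lower. *C1s1* (C1s) was at 204, 280 and 185 CPM against 127, 84.45 and 89.65 CPM, a change of -1.15 (standard error 0.22). *C1ra* (C1r) changed by -1.17 (standard error 0.27) and *C2*, cleaved by C1s, by -1.12 (standard error 0.24), with adjusted p-values of 0.0160, 0.0268 and 0.0215 for the 3 genes (limma-voom with Benjamini-Hochberg adjustment). They were 2.17-fold to 2.25-fold lower, close to *Serping1*. None of the 3 overlapped between genotypes, where 20.5% of all genes tested were separated downward. These calls held in 3, 2 and 1 of the 6 fits with 1 library removed. Genes of the lectin pathway had few counts, with *Masp1* and *Masp2* at 0.990 to 4.11 CPM and without a call, and *Mbl1* at 0 counts in all 6 libraries. The terminal components *C8b* and *C9* were also at 0 counts in all 6. Other terminal components were detected in every library, with *C6* at 1.97 to 11.9 CPM and *C7* at 3.51 to 33.5 CPM. Both overlapped between the genotypes and neither was called.

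Of the 10 membrane-bound regulators tested, 4 were called higher and 0 lower, where 8.03% of all genes tested were called higher. *Cd55*, which encodes decay-accelerating factor, a protein that dissociates C3 convertases on the cell's own surface, had CPM of 60.8, 108 and 61.4 in *Nf1fl/fl;DhhCre* and 236, 281 and 502 in the double knockout. Its change was 2.12 (standard error 0.34, limma-voom adjusted p = 0.0119), or 4.35-fold higher, and was called in 5 of the 6 fits with 1 library removed. *Csmd3* (2.99, standard error 0.78), *Susd4* (2.05, standard error 0.52) and *Csmd2* (1.87, standard error 0.47), which encode membrane proteins with complement control domains, were also called, with at most 22.8 CPM in any library. Each of these 3 was called in 2 or fewer of the fits with 1 library removed. All 10 of a list of sensory neuron markers, among them *Snap25*, were also called higher, with sums of 575 to 1127 CPM against 2670 to 5923 CPM, and their part in these 4 genes was not tested. *Cd59a*, the gene of an inhibitor of the membrane attack complex, was at 214 to 266 CPM and 257 to 308 CPM (0.18, standard error 0.13, adjusted p = 0.377 from limma-voom). *Csmd1* had a log2 fold change estimate of -0.46 (standard error 0.17, limma-voom adjusted p = 0.109).

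Of the 6 other receptors tested, 3 were called lower and 0 higher, where 5.36% of all genes tested were called lower. *Itgam* and *Itgb2*, which encode the chains of complement receptor 3, a phagocytic receptor for fragments of C3, changed by -2.89 (standard error 0.41) and -2.42 (standard error 0.41), with adjusted p-values of 0.01004 and 0.0128 (limma-voom with Benjamini-Hochberg adjustment). *Itgam* fell from 670, 468 and 936 CPM to 126, 46.0 and 122 CPM and was called whichever of the 6 libraries was left out. *C5ar2*, the second receptor of C5a, was at 24.9, 18.2 and 30.6 CPM against 5.90, 2.88 and 5.68 CPM (-2.35, standard error 0.37, limma-voom adjusted p = 0.0115). *Itgax*, which pairs with *Itgb2* in complement receptor 4, had the lowest estimate of the group at -4.24 (standard error 1.35) but an adjusted p of 0.0672. *Cd93*, expressed by endothelium, had an estimate of -0.24 (standard error 0.20, limma-voom adjusted p = 0.430).

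**Figure D3:**
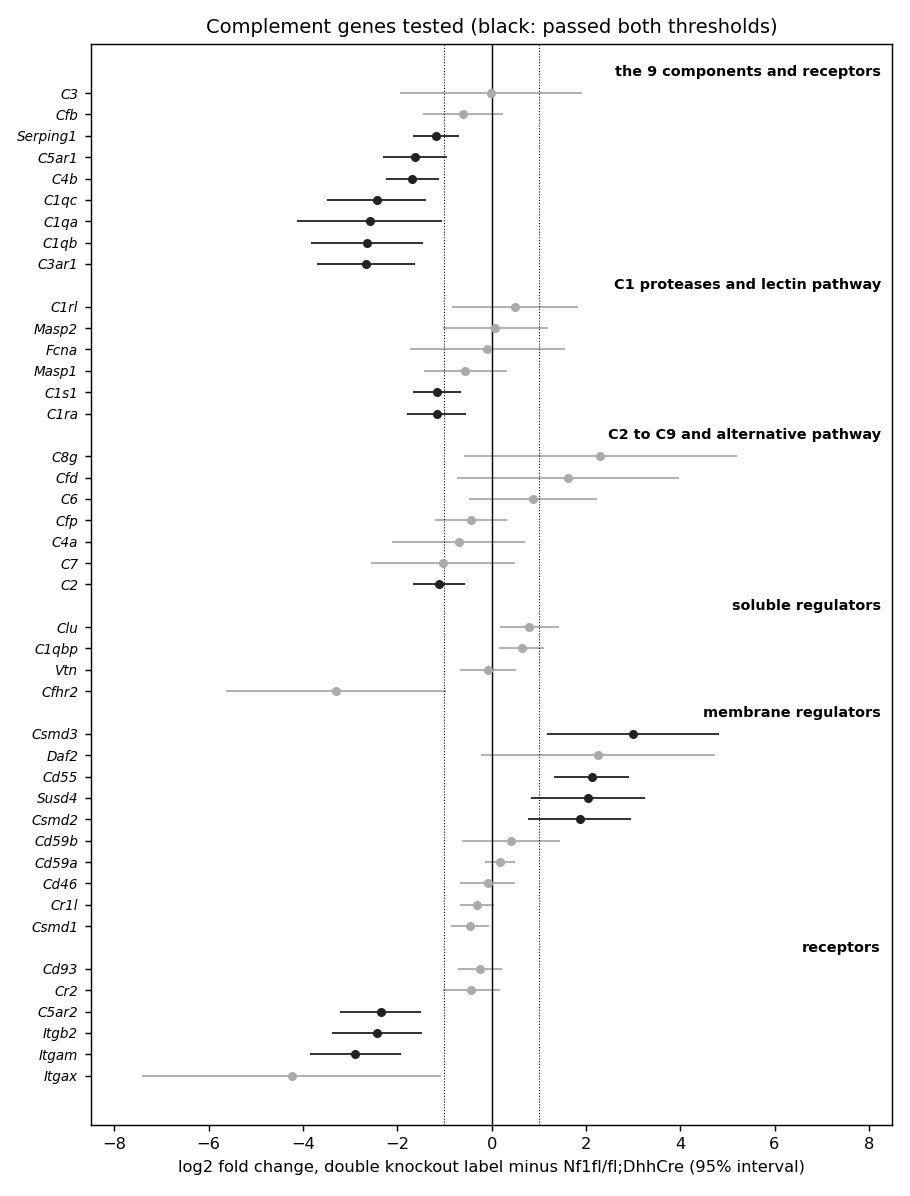
The horizontal axis is the log2 fold change (double knockout minus *Nf1fl/fl;DhhCre*, limma-voom) with its 95% interval, for the 9 genes and the other complement genes tested, apart from 1 not reported here. Black points passed both thresholds, and dotted lines mark 2-fold. The called components and receptors shown lie left of 0, and the 4 called membrane regulators, *Cd55* among them, lie right of it.

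Markers of macrophages moved with the C1q chains and the receptors. Over all genes tested, 5.36% were called lower and 8.03% higher. Of 13 macrophage genes that include none of the 9, 9 were called lower and none higher, with a median log2 fold change of -2.04. Their sum was 1002 to 1849 CPM in the *Nf1fl/fl;DhhCre* libraries and 255 to 527 CPM in the double-knockout libraries, and *Lyz2*, the lysozyme of myeloid cells, was detected in all 6. Of 8 fibroblast markers, among them *Dcn*, 4 were also called lower, with sums of 8197 to 8731 CPM against 3015 to 4939 CPM. Of 8 SC markers, 4 were called higher and 0 lower. Of 6 tested T and NK cell markers, among them *Cd4*, 1 was called lower, and sums were 16.3 to 52.6 CPM against 4.29 to 5.43 CPM. Of the B cell, neutrophil (such as *Csf3r*), mast cell (*Kit*), endothelial (*Cdh5*) and muscle markers, 0 were called, and their sums overlapped between the genotypes. *Csf3r* and *Kit* had log2 fold changes of -0.72 and 0.67, opposite in sign to the other tested genes of their lists. Of the 6 liver markers, *Serpina1a* made up most of the signal, while *Alb*, the gene of serum albumin, was at 0 to 2.71 CPM.

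Each of the 9 genes was then set against the macrophage markers of the same library, as its log2 CPM minus the mean log2 CPM of the 13. On this scale the mean difference between genotypes was -0.63 for *C1qb*, -0.62 for *C3ar1*, -0.58 for *C1qa* and -0.41 for *C1qc*, smaller than the difference of -2.05 in the marker mean itself. It was 0.37 for *C4b*, 0.40 for *C5ar1*, 0.87 for *Serping1*, 1.46 for *Cfb* and 2.04 for *C3*. The groups were separate for *C1qb*, *C1qc* and *C3ar1* (lower in the double knockout) and for *Cfb* (higher). For these 4 the exact two-sided permutation test gave p = 0.1, the smallest possible with 3 libraries against 3. Adjusted over the 9 genes by the Benjamini-Hochberg method, this permutation p was 0.225 for each of the 4. The share of all genes separated on this scale was not computed. *Cfb* was higher only relative to the markers, its own change being -0.61 without a call. For the other 5 the groups overlapped, with p from 0.2 to 0.5 in the same exact test. With the median of the markers in place of their mean, the p-values of *C1qb*, *C1qc* and *C3ar1* were 0.3, 0.4 and 0.2 (exact permutation) and that of *Cfb* was again 0.1. Without double-knockout replicate 2 the differences were -0.31 for *C1qb*, -0.21 for *C1qc* and -0.08 for *C1qa*, while that of *C3ar1* was -0.64. *C1qa* was at -0.94 without double-knockout replicate 3 and at -0.38 without *Nf1fl/fl;DhhCre* replicate 2. *C4b* was at 0.22 without *Nf1fl/fl;DhhCre* replicate 1, *C5ar1* at 0.22 without replicate 3 of that group and *Serping1* at 1.31 without its replicate 2.

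**Figure D4:**
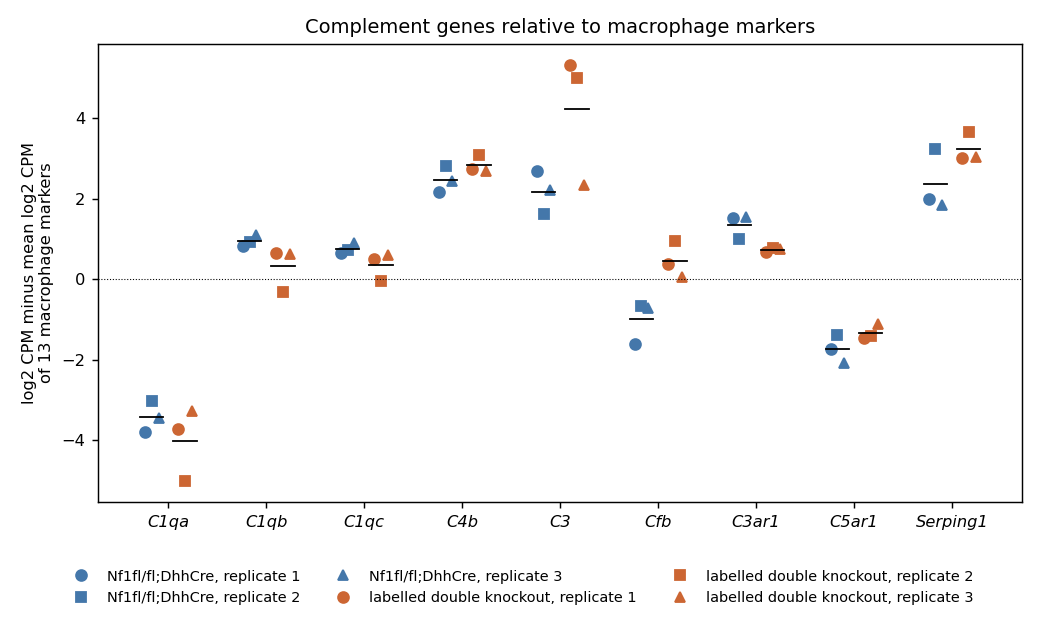
The vertical axis is the log2 CPM of each gene minus the mean log2 CPM of 13 macrophage markers in the same library. Points are libraries (*Nf1fl/fl;DhhCre* left, double knockout right) and short lines are group means. Relative to the markers, *Cfb* is separated upward in the double knockout, whereas *C5ar1*, *C4b* and *Serping1* overlap.

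Levels of the 9 genes were compared with each other as CPM per kilobase of merged exons. In the *Nf1fl/fl;DhhCre* libraries the order was *Serping1* (131 ± 34.3, SD, n = 3 here and below), *C1qb* (108 ± 42.5), *C4b* (57.6 ± 14.7), *C3* (56.9 ± 27.9), *C1qc* (53.1 ± 20.7), *C3ar1* (37.2 ± 16.8), *Cfb* (11.01 ± 5.21), *C5ar1* (6.81 ± 0.508) and *C1qa* (5.28 ± 1.46). Only *C3ar1* and *Cfb* were neighbours in this order whose 3 libraries did not overlap. In the double-knockout libraries the order was *C3* (74.7 ± 70.1), *Serping1* (57.0 ± 8.88), *C1qb* (18.8 ± 10.95), *C4b* (18.0 ± 4.64), *C1qc* (10.2 ± 4.98), *Cfb* (6.93 ± 1.81), *C3ar1* (5.57 ± 1.76), *C5ar1* (2.27, from 1.34 to 2.76) and *C1qa* (1.03 ± 0.684). There *Serping1* and *C1qb*, and *C3ar1* and *C5ar1*, were the neighbours without overlap.

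The likeness of 2 patterns over the 6 libraries was measured as the root mean square difference of their log2 CPM after each gene's mean was subtracted. *C1qb* and *C1qc* were the closest pair of the 9, at 0.17, followed by *C4b* and *C5ar1*, at 0.27, and *C1qc* and *C3ar1*, at 0.30. *C3* was at least 1.03 from each of the other 8, with *Cfb* the nearest. Of 10222 genes whose log2 CPM averaged 3 or more, those closest to the mean of the C1q chains outside the complement lists were *Fcgr2b* (0.16), *Dapp1* (0.22), *Tlr13* (0.23), *Fam105a* (0.24) and *Pld4* (0.24). *Fcgr2b* was at 61.1, 44.7 and 92.1 CPM against 14.9, 3.70 and 11.9 CPM. The genes closest to *C3* were farther from it, with *Pde3b* (0.51), *Dpt* (0.51), *Irf4* (0.56), *Cebpa* (0.57) and *H2-Q10* (0.58). *Pde3b* was at 94.7, 38.8 and 85.5 CPM against 185, 162 and 37.6 CPM.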

How the data were processed

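Bulk RNA-seq counts of 3 *Nf1fl/fl;DhhCre* libraries and 3 libraries labelled double knockout were used. The deposited values are raw read counts per gene symbol, which the authors made by aligning paired-end reads to mm10 with TopHat and counting with featureCounts. Not given in the sources used here are the annotation, whether strand was used and what was done with multiply aligned reads. RNA had been amplified before library preparation, and no molecular identifiers are named, so that intervals on counts cover counting error only. The columns of the authors' own comparison in the supplementary table hold fold changes and p-values and were not used.

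filterByExpr (at least 10 counts, 15 in total) selected the genes, which were scaled by trimmed mean of M values (TMM) and fitted with limma-voom in R 4.3.3 (edgeR 4.0.16, limma 3.58.1), comparing the genotypes without covariates. The Benjamini-Hochberg adjustment ran over all genes tested. A gene was called at an adjusted p below 0.05 and a change of more than 2-fold, the thresholds of the study. CPM denotes counts scaled to a common library size after TMM, in the usual unit of that name. CPM per kilobase of merged exons used GENCODE M21 (GRCm38, the assembly also called mm10). The fit was also run on simulated counts with the same dispersion for every gene, which checks the code and not the spread of these libraries. Within a genotype, chi-square statistics between libraries were 22.75 to 142 times their degrees of freedom, and no library was treated as a copy of another.

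Alternatives comprised DESeq2 1.42.0 and edgeR's quasi-likelihood test, scaling by library size only or by DESeq2 size factors, both other filters on low counts (CPM above 1 in 3 libraries, any count above 0), sample quality weights, unadjusted p and leaving out each library. For levels relative to macrophage markers (prior count 0.5) they were the median of the markers, a prior count of 2 and leaving out each library.

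The 9 genes, the other complement genes and the marker lists were chosen with earlier results of these data known. Beside these 9, the genes named are every other complement gene that was called, the gene with the highest mean CPM, not scaled to length, of each list, targeted genes, and the 5 genes closest in pattern to C1q and to *C3*. Any further gene was named after its values were seen. Some genes that this rule names are not reported here. Promoter windows came from RefSeq (GRCm38.p6) and were searched as letters only. Protein sequences planned for comparison were not used here, and stretches of 50 bases shared between GENCODE transcripts were counted instead. Plots used matplotlib 3.10.9 (Python 3.11.15).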

Additional observations from a re-analysis of the deposited data

How the results depend on the processing

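The 7 calls among the 9 genes held in each of the 8 other settings with all 6 libraries. With each of the 6 libraries left out in turn, the number called, all lower, was between 2, without *Nf1fl/fl;DhhCre* replicate 1, and 6; the cause was not tested, but that fit called 2.26% of all genes. It was 6 without double-knockout replicate 2 or 3. Over the same fits the number of other complement genes called was between 1 and 12, of which 1 to 7 were lower and 0 to 5 higher. *C3* changed sign, to 0.39 with edgeR's quasi-likelihood test, 0.39 with DESeq2 and 0.082 with sample quality weights, and between -0.80 and 0.89 over the fits that left out 1 library. *Cfb* stayed between -0.86 and -0.22 over them, without a call. The *C1qa* share of the C1q counts differed by -0.18 percentage points between genotypes and by -0.61 to 0.26 without 1 library. The levels relative to macrophage markers kept their direction in every alternative, and those of *C3*, *C3ar1* and *Cfb* moved by less than 1.5 times whichever library was left out, unlike those of the other 6 genes. No paired analysis was possible because the labels carry no replicate numbers shared between the genotypes. The *C1qa* values rest on 3 to 112 counts per library.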
